A study of Mus musculus with 12 samples.

Results

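The exons described here were cassette exons longer than 60 bases whose length was not a multiple of 3, so that, where the exon lay inside a reading frame that continued past it, the included and the skipped messenger RNA were read in different frames downstream. They were taken from the skipped exon tables of the 2 comparisons of flight with ground, by exon length alone, leaving out the genes Ttn and Neb. They made up 474 of the 2436 skipped and mutually exclusive exon events in the series and corresponded to 460 exons in 408 genes. Exon length ran from 61 to 1937 bases with a median of 116 bases, 219 exons left a remainder of 1 base and 241 a remainder of 2 bases. The members nearest to the length limit were exons of Tbc1d19, Tpd52l1 and Zfp963 at 61 bases and of Ddi2 and Scaf8 at 62 bases, and the nearest exons outside it, in Clk4, Gpam and Mybpc1, were 59 bases long.

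Total RNA came from 2 leg muscles, gastrocnemius and quadriceps, of female mice that spent 9 weeks on the International Space Station (flight) or in matched housing at the Kennedy Space Center (ground), with 3 mice in each condition and both muscles taken from the left hind limb of the same mice. The sample labels give the strain as C57BL/6, whereas the study's methods name BALB/c, and no other genotype is given. The animals were 30 weeks old at the start, and every mouse in both conditions, being a control of a bone drug study, received injections of phosphate-buffered saline. The muscles were dissected from carcasses that had been frozen and then thawed on ice. Each value below is percent spliced in (PSI), the percentage of a gene's junction signal that included the exon after dividing inclusion and skipping reads by their effective lengths, and the 3 samples of a group are listed in the tables by position without a mouse name.

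Messenger RNA is read in codons of a fixed length, so an exon of any other length carries the reading frame with it. When such an exon is left out, or when one that is normally absent is put in, the ribosome usually meets a stop codon early. A stop codon lying well upstream of the last exon junction marks a transcript for nonsense-mediated decay, in which the UPF and SMG proteins recognise the terminating ribosome and the exon junction complexes still bound downstream. Exons whose inclusion introduces the stop are called poison exons, and many genes for RNA-binding proteins use them to set their own level.

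The effect of each exon was read from GENCODE transcripts by removing or adding that exon alone and translating from the annotated start. For 195 of the 474 events (41.1%), skipping moved the frame into a stop more than 50 bases before the last junction. For 82 events (17.3%) the exon was absent from annotated coding transcripts and its inclusion gave such a stop. Skipping gave another carboxyl end in 62 events (13.1%), 51 exons were untranslated (10.8%), 26 held the stop codon and 24 the start codon. Another 10 lay in coding transcripts without an annotated start, and 24 fell in none of these classes.

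The sequences below show what the shifted frame read. In each of the first 9, the first 30 bases are the end of the upstream part of the transcript, the skipped exon is gone, the next exon follows directly, and capitals mark the first stop codon in frame. They were chosen from the exons that ranked highest for flight against ground and were read from GENCODE vM21 (GRCm38, the same build as mm10).
Cacnb1 without exon 7 (chr11:98011343-98011497, minus strand): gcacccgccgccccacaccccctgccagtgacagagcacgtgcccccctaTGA
Stag1 without exon 5 (chr9:100757690-100757786, plus strand): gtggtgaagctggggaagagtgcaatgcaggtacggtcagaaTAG
March5 without exon 3 (chr19:37217183-37217313, plus strand): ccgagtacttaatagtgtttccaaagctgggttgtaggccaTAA
Taf15 without exon 6 (chr11:83487223-83487413, plus strand): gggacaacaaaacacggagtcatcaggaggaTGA
Rab6a without exon 4 (chr7:100629838-100629943, plus strand): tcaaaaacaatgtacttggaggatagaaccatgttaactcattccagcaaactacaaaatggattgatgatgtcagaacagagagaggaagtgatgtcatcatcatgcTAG
Drosha without exon 26 (chr15:12907324-12907394, plus strand): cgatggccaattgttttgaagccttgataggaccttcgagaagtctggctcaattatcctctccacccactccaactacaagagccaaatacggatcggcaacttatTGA
Pibf1 without exon 3 (chr14:99105169-99105269, plus strand): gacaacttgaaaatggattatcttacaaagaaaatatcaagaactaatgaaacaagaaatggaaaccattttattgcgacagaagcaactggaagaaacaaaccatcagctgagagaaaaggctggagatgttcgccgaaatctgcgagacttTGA
Nt5dc1 without exon 6 (chr10:34398114-34398198, minus strand): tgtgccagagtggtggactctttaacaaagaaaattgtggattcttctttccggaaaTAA
Trappc10 without exon 4 (chr10:78222664-78222860, minus strand): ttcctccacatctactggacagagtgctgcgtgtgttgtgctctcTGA
The next sequence is a whole exon with the opposite effect, a poison exon of Necap2, in which the stop begins at base 40 of the exon.
Necap2 exon 6 of Necap2-210 (chr4:141071581-141071717, minus strand): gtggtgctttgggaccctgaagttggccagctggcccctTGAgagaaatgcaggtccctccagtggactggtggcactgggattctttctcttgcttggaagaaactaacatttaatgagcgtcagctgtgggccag
The last is the exon of Ank2 that passed the test between the muscles in flight, shown whole because the coding start of its transcript is not annotated.
Ank2 exon 3 of Ank2-215 (chr3:126926803-126926894, minus strand): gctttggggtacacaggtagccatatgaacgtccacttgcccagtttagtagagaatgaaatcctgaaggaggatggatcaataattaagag

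The stop usually came soon after the join. Over the 193 exons whose skipping gave a premature stop, the median was 12 codons read from the join to the stop (range 0 to 107), and for 91 of them it was 10 codons or fewer. The new stop lay a median of 837 bases before the last junction. GENCODE listed a coding transcript with the same skipping junction for 36 of these 193 exons. For 25 exons, adding the exon to that skipping transcript also gave a premature stop. Their class, and which form is counted as having the stop, depends on the transcript that was read. Of the 82 poison exons, 57 were in a transcript that GENCODE labels as a target of nonsense-mediated decay. Guanine and cytosine made up a median of 45.9% of the exon where skipping gave the stop and 50% where inclusion did, over all 459 exons with a sequence 47.1%.

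A row entered the tests when it had a mean of more than 10 junction reads in both conditions and was not at or beyond 5% or 95% PSI in all 6 samples. In the gastrocnemius 398 of 469 rows passed and in the quadriceps 395 of 471, and 342 passed in both muscles. Junction reads over all events ran from 777760 to 1246850 per sample, of which 13856 to 20999 fell on these exons. The median kept row had 20 to 31.0 reads per sample, so a single read moved its PSI by several percentage points. Rows were not all independent, because 13 exons had more than 1 row and 43 genes had more than 1 exon (Zbtb20 had 4).

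The third quadriceps ground sample in the list stood apart. In it 238 of 395 kept rows (60.3%) had a PSI of exactly 0 or 100, compared with 72 to 117 rows in the other 5 quadriceps samples and 18.3% to 24.6% of rows in the gastrocnemius samples. Its median PSI was 89.8, against 75 to 80 in the other quadriceps samples, 9 kept rows had no read, and its median depth of 20 reads was the lowest. Without it the median quadriceps ground PSI of these exons was 80.9 instead of 83.3, and results that rest on it are followed below by their values without it. Skeletal muscle markers dominated all 12 libraries, at a summed 81984 to 113481 TPM (transcript abundance relative to the library total), and none of the 10 markers was at 0. The summed level of 5 adipocyte markers was 280.3 to 501 TPM in quadriceps ground and 182 to 244 TPM in quadriceps flight, and its part in the quadriceps results was not tested. Over both conditions, Schwann cell markers summed to 139 to 303 TPM in the gastrocnemius and 54.8 to 86.9 TPM in the quadriceps. Skeletal muscle markers summed to 81984 to 87658 TPM and 101476 to 113481 TPM in the same order. The other cell type lists overlapped. The part of such differences in the comparisons between muscles was not tested.

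**Figure D1:**
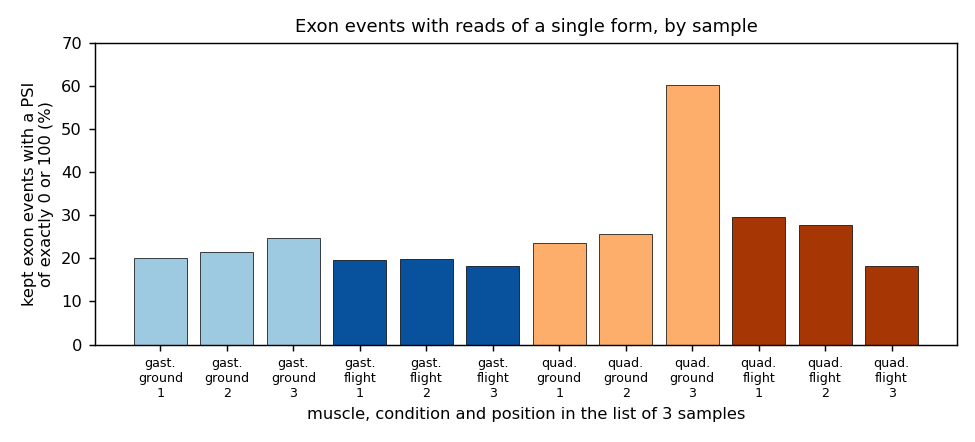
Bars give, for each of the 12 samples, the percentage of kept frame-shifting exon rows whose PSI was exactly 0 or 100, that is, rows with reads of a single form; samples are ordered by muscle, condition and position in the list. The third quadriceps ground sample reached 60.3%, and the other 11 samples lay between 18.2% and 29.6%.

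In all 4 groups the form without the premature stop was the main one for the median exon. Among exons whose skipping gave a premature stop, the median PSI was 89.2 in gastrocnemius ground, 88.9 in gastrocnemius flight, 90.9 in quadriceps ground and 88.6 in quadriceps flight, over 168 rows in the gastrocnemius and 164 in the quadriceps. For poison exons the median PSI was 13.4, 10, 10.1 and 8.7 in the same order, over 67 rows in each muscle. Exons of the first class lie by definition in an annotated coding transcript and poison exons in none. High PSI in the first class and low PSI in the second may therefore follow from how the classes were set. An effect of the stop on PSI was not tested. On the ground, PSI was above 50 in 154 of the 168 gastrocnemius rows of the first class and below 50 in 58 of the 67 of the second. Coding exons whose skipping gave another end, with no premature stop, had medians close to those of the first class. They were 86.8 in gastrocnemius ground, 89.2 in gastrocnemius flight, 90.8 in quadriceps ground and 89.4 in quadriceps flight. Untranslated exons, which do not touch the frame, were spread over the whole range with a median of 46.9 in gastrocnemius ground and an interquartile range of 12.2 to 81.9. Exons that held the stop codon had medians of 64.1 to 79.6 across the groups, and those that held the start codon 68.6 to 85.2. Without the third sample the quadriceps ground median was 91.2 for the first class, 90.4 where skipping gave another end and 9.6 for poison exons. It was 69.4 for exons with the stop codon and 79.3 for those with the start codon.
The share of the form with the premature stop was close among gastrocnemius samples. For the first class its median was 11.6%, 10.4% and 10.2% in gastrocnemius ground and 12.1%, 11.1% and 10.5% in gastrocnemius flight. In the quadriceps it was 6.4%, 8.0% and 0.0% on the ground and 8.5%, 10% and 12.2% in flight, the 0.0% being the third ground sample.

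**Figure D2:**
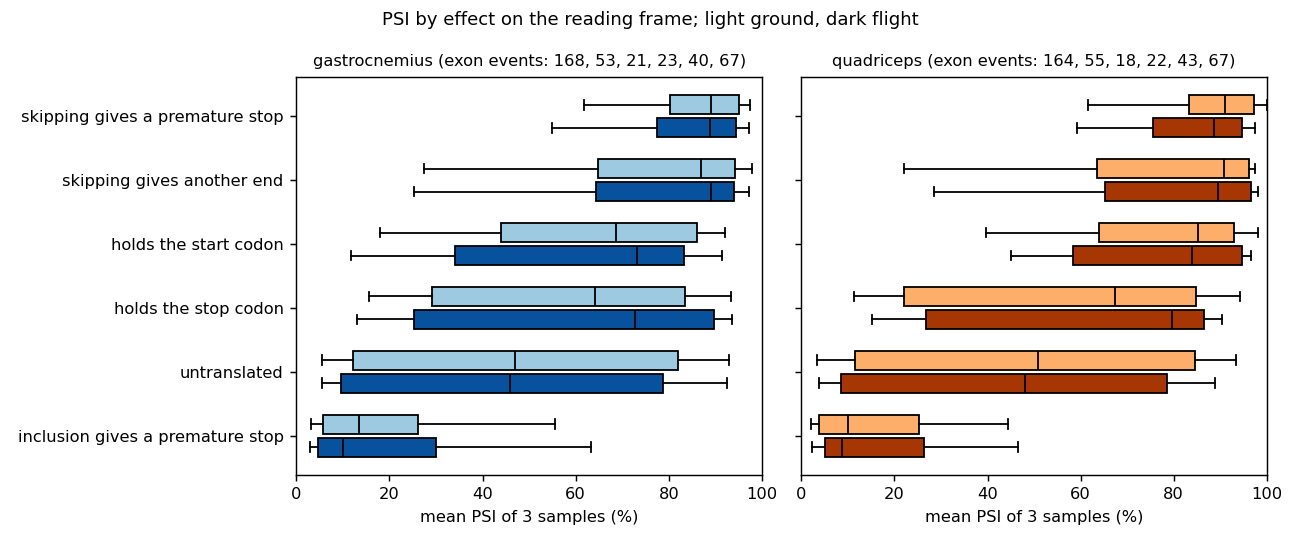
Boxes show the group mean PSI (percent) of kept exons by their effect on the reading frame, in the gastrocnemius (left) and the quadriceps (right), with ground light and flight dark; the line is the median, the box the interquartile range and the whiskers the 10th and 90th percentiles. Numbers of rows are printed in class order. The classes in which skipping and inclusion give a premature stop lie at opposite ends of the scale, with ground medians of 89.2 and 13.4 in the gastrocnemius. By definition the first lies in annotated coding transcripts and the second outside them, which may by itself set them apart.

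In 14 gastrocnemius rows of the first class PSI was below 50 on the ground. One of them was in Pdlim7, a PDZ-LIM scaffold protein that ranked for flight against ground. It had an exon of 119 bases (exon 5 of Pdlim7-201) whose removal gave a stop after 50 codons, yet it was mostly skipped. Its PSI was 16.2, 13.0 and 13.5 in gastrocnemius ground, 18.1, 23.3 and 23.0 in gastrocnemius flight, 13.9, 12.6 and 18.7 in quadriceps ground and 14.4, 21.0 and 17.6 in quadriceps flight. All 12 samples lay below 25 and only the 2 gastrocnemius groups did not overlap.
The 8 members with the most reads, 163.5 to 294.5 per sample, were Ptp4a2, Ubxn2a, Zfand5, Fxr1, Mbnl1, Gpcpd1, Svil and Dmpk. Apart from Mbnl1, their group means lay between 86.6 and 99.0. Ptp4a2, a protein tyrosine phosphatase, had group means between 96.6 and 99.0 and a standard deviation of 0.18 to 2.54 over the 3 samples of a group.

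The first question was whether flight changed the use of these exons in the gastrocnemius, the calf muscle. By limma on the log2 ratio of inclusion to skipping, with an adjusted p under 0.05 and a difference over 5 points of PSI required, 0 of 398 members were called, where 0.378% of all 2118 events tested were called. At an unadjusted p under 0.05 there were 23 members (5.78%, 13 higher and 10 lower in flight), against 9.49% of all events, and a quasi-binomial model of the reads called 0 members, with 21 at an unadjusted p under 0.05. PSI of the 2 groups did not overlap for 37 members (9.3%), 16 higher and 21 lower in flight, against 16.2% of all events. The median difference, flight minus ground, was -1.02 points for members and 0.08 for all events, and the median size of the difference was 4.56 and 4.41 points.

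The smallest p belonged to Cacnb1, the beta subunit of the L-type calcium channel that couples excitation to contraction. PSI of its exon 7 was 100 in all 3 ground samples and 94.7, 95.7 and 93.0 in the flight samples. Every flight sample was below every ground sample, a difference of -5.52 points, with a log2 ratio of -2.34 ± 0.40 (SE) and an adjusted p of 0.0638 by limma. With no skipping read on the ground, that ratio rests on the 0.5 added to the reads. The adjusted p was 0.0469 to 0.415 over the alternatives tried, 0.167 by limma with 1 read added and 0.234 by the quasi-binomial model. Without the third flight sample the difference was -4.78 points, under the 5-point limit. The 233 inclusion reads of the ground group allow a skipped share of up to 2.51% at 3 unseen reads. In the quadriceps the exon was at 96.7 to 100 and was not tested, as it was above 95 in every sample.
Stag1, a subunit of the cohesin ring, went the other way. PSI of its exon 5 was 87.5, 68.0 and 81.8 on the ground and 100 in each flight sample. The difference was 20.9 points (adjusted p = 0.0969 by limma), at 15 to 28 reads per sample, and 3 unseen skipping reads would give 7.23% skipping in flight. Host gene expression of Stag1 in this muscle was 23.6 TPM on the ground and 27.7 TPM in flight (adjusted p = 0.33 by limma).

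Among other genes for muscle structure and membranes, Ank2 (ankyrin-B, which anchors channels to the cytoskeleton) gave 96.5, 91.5 and 94.6 on the ground and 83.6, 81.8 and 73.7 in flight. These groups did not overlap and differed by -14.5 points (adjusted p = 0.29 by limma). Abcc9, the sulfonylurea receptor of the muscle potassium channel, gave 81.0, 75 and 70.4 on the ground and 90.9, 86.0 and 96.4 in flight for the exon that holds its stop codon. The difference was 15.7 points (adjusted p = 0.36 by limma). Capzb, which caps actin filaments at the Z-disc, had 97.4 to 98.5 on the ground and 92.3 to 96.2 in flight, under the 5-point limit.

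Further members belonged to ubiquitin and transport genes. March5, a ubiquitin ligase of the mitochondrial outer membrane, had a PSI of 100, 100 and 95.3 on the ground and 92.9, 76.5 and 90.5 in flight, without overlap (-11.9 points, adjusted p = 0.295 by limma). Without the second flight sample its difference was -6.78 points. Rab6a, a small GTPase of the Golgi, had 66.7, 57.9 and 75 on the ground and 78.9, 100 and 100 in flight at 5 to 17 reads per sample (26.5 points, adjusted p = 0.36 by limma). The poison exon of Necap2, a clathrin coat adaptor, was lower in every flight sample than in every ground sample, at 13.3, 20 and 12.5 on the ground and 3.4, 4.3 and 2.9 in flight. It rested on 9 to 18 reads per sample, and its adjusted p was 0.324 by limma. Taf15, an RNA-binding protein of the FET family, had 87.5, 81.8 and 93.7 on the ground and 100, 94.9 and 100 in flight. The groups did not overlap and the difference was 10.6 points (adjusted p = 0.313 by limma). The other ranked exons, in Egfl7, Stxbp4, Sf1 and Pdlim7, were all higher in flight, by 5.62 to 14.6 points, with adjusted p-values of 0.391 to 0.523 by limma. Without the second ground sample the difference for Sf1 went from 14.6 to 8.36 points, and without the first that for Stxbp4 went from 5.62 to 3.64 points.

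**Figure D3:**
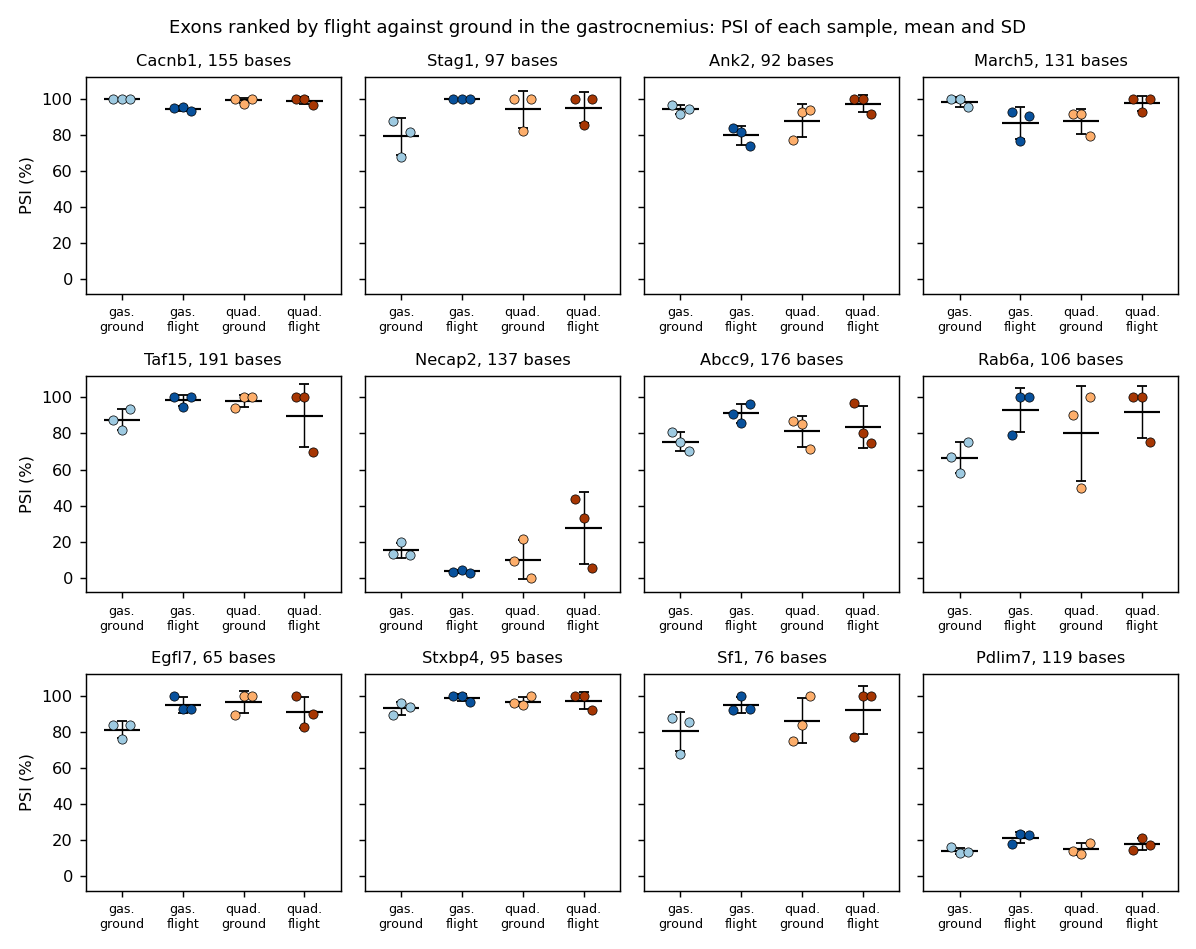
Each panel shows 1 of the 12 exons with the smallest unadjusted p in the gastrocnemius among those without overlap and over 5 points of difference, with PSI in percent for the 3 samples of each of the 4 groups (points), their mean (line) and SD (bar). Because they were ranked on the gastrocnemius groups, ground and flight do not overlap there; the quadriceps groups overlapped for every exon except March5, where the direction was opposite.

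The same question was asked in the quadriceps, the thigh muscle. Here limma called 0 of 395 members, and 0.0% of all 2062 events tested were called. At an unadjusted p under 0.05 there were 27 members (6.84%, 11 higher and 16 lower in flight), against 7.81% of all events, and the quasi-binomial model called 1 member, a 223-base exon row of Mbnl1 (adjusted p = 0.0416), with 35 at an unadjusted p under 0.05. PSI did not overlap for 42 members (10.6%), 21 in each direction, against 12.8% of all events. Without the third ground sample, where fewer samples make non-overlap easier, 70 members (17.7%) and 22.8% of all events did not overlap, and 21 members had an unadjusted p under 0.05. Among the 164 rows whose skipping gave a premature stop, 64 were higher and 100 lower in flight, with a median of -2.96 points, and 13 had an unadjusted p under 0.05 (3 higher). Without the third ground sample the same rows gave 69 higher and 91 lower, and a median of -0.98 points, with 10 at an unadjusted p under 0.05 (1 higher). In the gastrocnemius the class had 74 higher and 94 lower, with a median of -1.46 points. All events tested gave 1076 higher and 985 lower in the quadriceps, with a median of 0.37 points. In the gastrocnemius they gave 1070 higher and 1048 lower, with a median of 0.08 points. Over all kept members of the quadriceps the median was -0.81 points with the third ground sample and 0.05 without it.

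Mbnl1 encodes muscleblind, which drives the adult splicing pattern in muscle, and its exon 2 of 1049 bases (chr3:60528756-60529804, plus strand) holds the annotated start codon. PSI was 84.1, 96.4 and 98.7 in quadriceps ground and 77.4, 80.4 and 81.6 in quadriceps flight, at 147 to 220 reads per sample. All flight samples were below all ground samples, by 13.3 points, with a log2 ratio of -2.26 ± 0.76 (SE) and an adjusted p of 0.54 by limma. Without the third ground sample the difference was -10.5 points (adjusted p = 0.687 by limma, 0.19 to 0.847 over the alternatives tried). In the gastrocnemius the values were 78.2, 78.5 and 74.1 on the ground and 73.8, 73.1 and 74.8 in flight, and the groups overlapped. A second row for a shorter exon with the same start, 223 bases long, read 15.2, 72.4 and 88.9 in quadriceps ground and 0.0, 22.0 and 14.3 in quadriceps flight, and it shares the reads of that start. This shorter row was the one called by the quasi-binomial model, in which the row of 1049 bases had an adjusted p of 0.19.

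Exons of 3 other genes that act on RNA ranked with it. Drosha, the nuclease that cuts primary microRNAs, had a PSI of 100 in all 3 ground samples for exon 26 and 64.3, 60 and 83.3 in flight. The 55 inclusion reads on the ground allow up to 9.84% skipping, and the difference of -30.8 points had an adjusted p of 0.536 by limma. In the gastrocnemius Drosha was also at 100 in all 3 ground samples and at 90.5, 100 and 80 in flight, where the groups touched at 100. Papola, the poly(A) polymerase, had 90.9, 71.4 and 100 on the ground and 33.3, 70.4 and 57.1 in flight (-33.8 points, adjusted p = 0.631 by limma). Eif4g3, a scaffold of translation initiation, had 96.9, 96.2 and 100 on the ground and 90.2, 89.8 and 94.4 in flight (-6.22 points, adjusted p = 0.543 by limma).

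Other exons lower in flight lay in genes of metabolism, signalling and traffic. Nt5dc1, which holds a nucleotidase domain, had 100, 92.3 and 100 on the ground and 43.6, 73.3 and 55.6 in flight, a wide difference (-39.9 points, adjusted p = 0.536 by limma). The row of Nt5dc1, like those of Drosha and Papola, fell out when a mean over 20 junction reads was required in both conditions. Trappc10, part of a vesicle tethering complex, was at 100 in all 3 ground samples and at 76.5, 68.2 and 86.2 in flight (-23.1 points, adjusted p = 0.587 by limma). Irak1, a kinase below the interleukin-1 receptor, had 91.5, 100 and 100 on the ground and 83.1, 88.2 and 85.4 in flight (adjusted p = 0.54 by limma). The third ground sample was at 100 in Drosha, Papola, Eif4g3, Nt5dc1, Trappc10 and Irak1, and the remaining ground samples were above the flight samples in each of them. Without that sample the differences of these 6 exons were -38.7 to -5.07 points, with adjusted p-values of 0.57 to 0.736 by limma.

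A further 5 ranked exons were higher in flight. Pibf1, a protein of the centrosome, had the smallest p in this muscle, with a PSI of 77.8, 76.0 and 66.7 on the ground and 100 in each flight sample. The difference was 26.5 points with an adjusted p of 0.536 by limma, at 8 to 35 reads per sample, and 3 unseen reads would give 8.22% skipping in flight. Ppp2r5c, a regulatory subunit of protein phosphatase 2A, had 29.4, 36.0 and 33.3 on the ground and 60, 81.8 and 71.4 in flight for an exon with a stop codon (38.2 points, adjusted p = 0.631 by limma). The row of Ppp2r5c also fell out when a mean over 20 junction reads was required in both conditions. Msi2 (an RNA-binding translational regulator), Dido1 and Ube2g1 (a ubiquitin-conjugating enzyme) had group means of 0.0 to 3.18 on the ground and 8.53 to 9.72 in flight, each with an adjusted p of 0.631 by limma. Without the third ground sample the difference for Ube2g1 was 4.96 points, under the 5-point limit, and that for Pibf1 was 23.1 points.

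**Figure D4:**
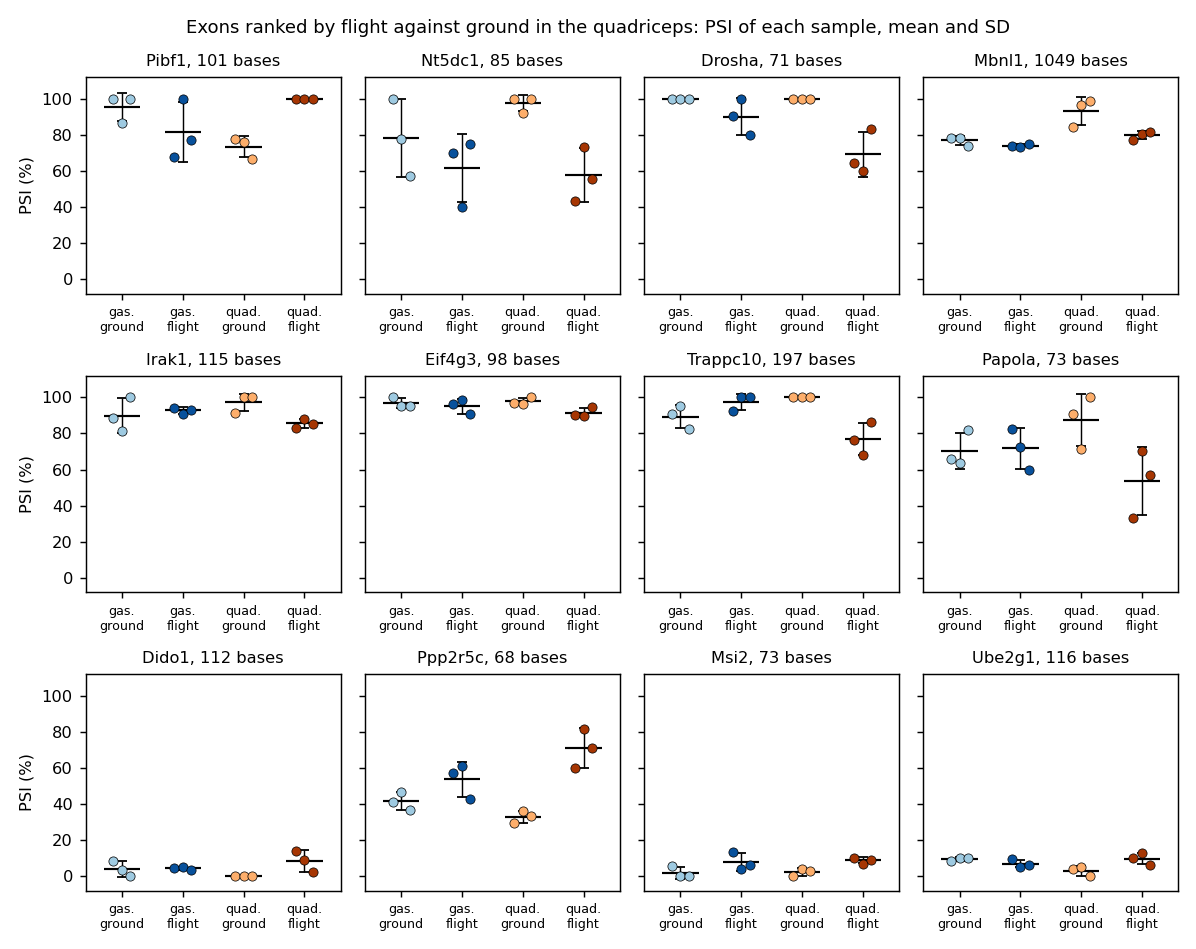
Each panel shows 1 of the 12 exons with the smallest unadjusted p in the quadriceps among those without overlap and over 5 points of difference, with PSI in percent for the 3 samples of each of the 4 groups (points), their mean (line) and SD (bar). Ranked on the quadriceps, ground and flight do not overlap there; the third ground point was at 100 or 0.0 in 8 of the 12 panels.

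In neither muscle did a list of functional groups give a call. Over all events tested, 9.49% in the gastrocnemius and 7.81% in the quadriceps had an unadjusted p under 0.05. Of 53 kept rows in genes for RNA binding and splicing in the gastrocnemius, 5 had an unadjusted p under 0.05, all higher in flight, and 7 of 52 did in the quadriceps, of which 2 were higher. Ddx17, an RNA helicase, was one of these, at 94.3 to 94.8 in gastrocnemius ground and 97.8 to 100 in gastrocnemius flight (adjusted p = 0.281 by limma). Muscle structure genes gave 5 of 20 rows in the gastrocnemius (2 higher) and 1 of 19 in the quadriceps. Ubiquitin and autophagy genes gave 2 of 26 and 3 of 26 rows, membrane traffic genes 3 of 21 and 2 of 25, and transcription and chromatin genes 3 of 37 and 2 of 35. In the last list an exon of Zfp280d, a zinc finger protein, was classed as a poison exon by annotation but was often included. It was at 81.8, 40 and 41.2 in gastrocnemius ground and 73.3, 100 and 100 in flight, with overlap (adjusted p = 0.394 by limma). Median differences of these lists lay between -1.81 and 2.67 points, and over all events the medians were 0.08 and 0.37 points. The lists were chosen with earlier results of these data known.

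The next question was how the muscles differed from each other. On the ground, 1 of 342 members was called, against 6.46% of all 1858 events present in both muscles, and in flight 1 of 342, against 5.65%. At an unadjusted p under 0.05 there were 24 and 17 members (7.02% and 4.97%), against 14.7% and 14.5% of all events. The member called on the ground was Mbnl1 exon 2, with the values given above. It was higher in the quadriceps by 16.2 points (log2 ratio 2.50 ± 0.61 SE, adjusted p = 0.0218 by limma, 8.76e-05 to 0.0836 over the alternatives tried). Without the third quadriceps ground sample it was higher by 13.3 points with an adjusted p of 0.0816 by limma, without the second by 14.5 points with 0.0824, and without any 1 of the gastrocnemius ground samples by 14.7 to 16.9 points with 0.0603 to 0.0836. In flight its difference between the muscles was 5.87 points (adjusted p = 0.869 by limma).

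The member called in flight was the exon of Ank2 printed above. PSI in flight was 83.6, 81.8 and 73.7 in the gastrocnemius and 100, 100 and 91.7 in the quadriceps, without overlap. The difference was 17.5 points (log2 ratio 2.86 ± 0.76 SE, adjusted p = 0.0396 by limma, 0.0085 to 0.182 over the alternatives tried). The adjusted p was 0.0919 to 0.154 by limma without any 1 of the gastrocnemius flight samples, and 0.182 and 0.154 without the first or the second quadriceps flight sample. By the quasi-binomial model Ank2 had an adjusted p of 0.0741, and the 1 member called was the poison exon of Necap2 (23.9 points higher in the quadriceps, adjusted p = 0.0309). On the ground the muscles overlapped, at 91.5 to 96.5 and 77.3 to 93.7. A second row of the same exon with other flanking exons had 82.6, 100 and 100 in gastrocnemius flight and 100, 73.9 and 79.3 in quadriceps flight, a difference of -9.8 points with overlap (adjusted p = 0.868 by limma).

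Other exons ranked between the muscles on the ground did not pass the test by limma as fitted here. Crebl2, a leucine zipper protein, had 100, 63.6 and 71.4 in the gastrocnemius and 55.6, 30.8 and 3.7 in the quadriceps (adjusted p = 0.0789 by limma). It passed with weights by reads (0.0389), by the quasi-binomial model (0.0131) and without the first quadriceps ground sample (0.0274), whereas without the third its difference went from -48.4 to -35.2 points with an adjusted p of 0.284. Zfand5, which activates the proteasome, had 93.5, 91.4 and 95.3 in the gastrocnemius and 99.0, 97.0 and 100 in the quadriceps (adjusted p = 0.0711 by limma). It passed with 1 read added (0.0427) and without the second quadriceps ground sample (0.0207), and without the third its difference of 4.58 points was under the 5-point limit (0.295). March5, Ube2g1, Ttc7b, Gm15179 and 4833439L19Rik were also without overlap, with adjusted p-values of 0.129 to 0.212 by limma. Without the third quadriceps ground sample March5 went from -10.9 to -6.88 points and Ube2g1 from -6.29 to -4.7 points, and the adjusted p-values of these 5 were 0.0956 to 0.462. Both muscles came from the same mice, but the read lists do not name the mouse, so the samples were treated as independent in the comparisons between muscles.

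Flight and ground were compared across both muscles for the same exons. Of the 342 members kept in both, 15 were higher and 17 lower in flight in the gastrocnemius alone, 18 higher and 19 lower in the quadriceps alone, 0 were apart in the same direction in both and 3 were apart in opposite directions. As shares, 9.36% of members were apart in the gastrocnemius alone, 10.8% in the quadriceps alone, 0.0% in the same direction and 0.877% in opposite directions, against 13.6%, 9.85%, 2.58% and 0.7% of all 1858 events. A direct test of the difference between the flight effects called 0 of 342 members by limma, against 0.161% of 1858 events, with 16 members at an unadjusted p under 0.05. The quasi-binomial model called 0 members, with 24 at an unadjusted p under 0.05. The smallest adjusted p of a member was 0.34 by limma, for March5.

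**Figure D5:**
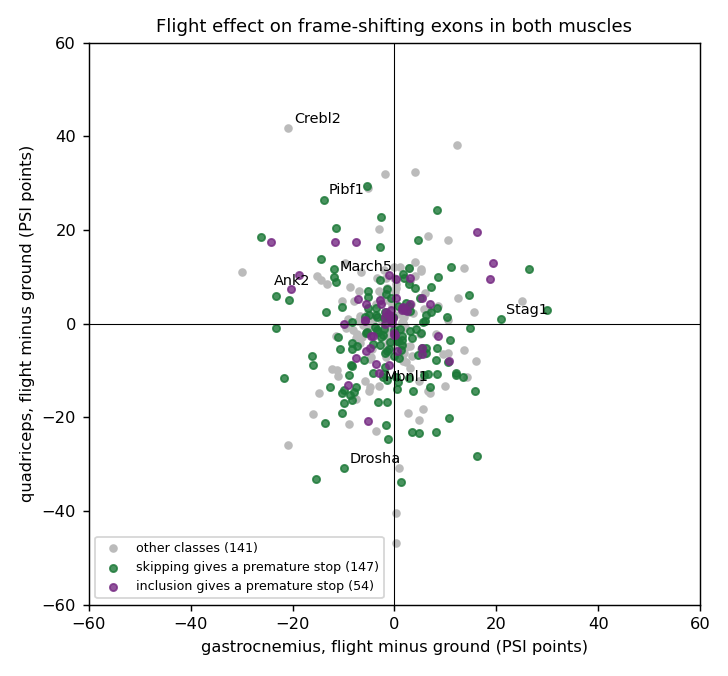
Each point is 1 of the 342 exon rows kept in both muscles, placed by flight minus ground in PSI points in the gastrocnemius (horizontal) and the quadriceps (vertical), and coloured by whether skipping (147 rows) or inclusion (54 rows) gives a premature stop. The same mice gave both muscles. Crebl2 lies far out at upper left, with -20.8 and 41.7 points.

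Finally, the level of the host genes was compared, since decay of a form with a premature stop lowers the message. In whole muscle, fewer cells of a type and less RNA per cell cannot be told apart. Of 403 host genes tested in TPM, limma called 0 in gastrocnemius and 0 in quadriceps (adjusted p under 0.05 and over 1.5-fold), where 0.229% and 0.0286% of 10481 genes were called. At an unadjusted p under 0.05 there were 72 host genes (17.9%, 46 higher and 26 lower) and 60 (14.9%, 43 higher and 17 lower), against 15.1% and 10.8% of all genes. The median log2 difference of host genes was 0.05 in gastrocnemius, compared with 0.02 for all genes, and 0.04 in quadriceps, compared with 0.01.

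The decay machinery itself was also measured. Of 24 tested genes for nonsense-mediated decay and the exon junction complex, 0 were called in either muscle by limma. In the gastrocnemius 4 (16.7%) had an unadjusted p under 0.05 and were higher in flight, close to the 15.1% of all genes. In the quadriceps 0 did, against 10.8% of all genes. The summed level of the 26 genes listed overlapped in the gastrocnemius, at 438 to 485 TPM on the ground and 460 to 494 TPM in flight. Among the 4 in the gastrocnemius were Upf3b, which bridges the junction complex to UPF proteins, at 15.8 and 20.2 TPM on the ground and in flight, Smg9 at 9.54 and 11.8 TPM and Casc3, a core part of the junction complex, at 15.4 and 18 TPM. The adjusted p-values of these genes were 0.275 to 0.307 by limma. Upf1, the helicase at the centre of the pathway, was at 16 TPM in gastrocnemius ground and 15.99 TPM in gastrocnemius flight. Xrn1, which degrades the remaining message, is itself a host gene. Its exon 24 was at 90.9, 92.6 and 91.7 in quadriceps ground and 83.3, 88.2 and 80.6 in quadriceps flight (adjusted p = 0.833 by limma). In the gastrocnemius the 1 kept row of the listed decay genes went the other way. It was 8.23 points higher in flight, with overlap, from a mean PSI of 85.3 on the ground.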

How the data were processed

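Junction reads were analysed from rMATS-turbo tables deposited by the authors for skipped and mutually exclusive exons, after alignment of stranded, single-end, 50-base reads to mm10 with STAR 2.7.1a. The deposited TPM were estimated by the authors with kallisto 0.46.0. Columns with the authors' own PSI differences and p-values were not used. PSI was recomputed from reads and effective lengths (98 for inclusion, 49 for skipping). In each muscle, limma 3.58.1 in R 4.3.3 was fitted to the log2 ratio with 0.5 added to both read numbers, over all kept events, with a trend on reads and Benjamini-Hochberg adjustment; samples without reads for an event were left out of its fit. Muscles were compared over 4 groups. Expression was tested on log2(TPM + 1) for genes above 5 TPM in at least 1 library. Fits were also run on simulated data that used a single spread for all events and samples of a muscle. The simulation did not model the third quadriceps ground sample separately, and nothing above rests on it. An exact permutation test of 3 against 3 cannot go below p = 0.1, so single exons rest on the model.

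Members and lists were chosen with earlier results of these data known. Named exons were those called in any comparison, the 12 of smallest unadjusted p in each muscle with no overlap and over 5 points, those apart in the same direction in both muscles, the 8 deepest, the 8 ranked between muscles on the ground, and the 3 ranked first in each list. Replicates were separate mice, but the positions in the read lists carry no mouse name. Ground and flight libraries with the same replicate number were different mice and did not deviate together (r of -0.18 to 0.111 across genes), so no pairing was used between conditions. The muscles of 1 mouse could not be matched in the read lists, so that pairing was left out of the comparisons between muscles. Limits at a count of 0 assume 3 reads and cover counting error only. Alternatives concerned the filter, the added reads, the weights, the trend, the row choice and each sample left out. Some items are not reported here.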

Additional observations from a re-analysis of the deposited data

Results flagged for a closer look

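The exons of 3 genes were apart in opposite directions in the 2 muscles, every flight sample below every ground sample in the gastrocnemius and above in the quadriceps. The difference between the effects, quadriceps minus gastrocnemius, was 62.5 points of PSI for exon 3 of Crebl2, 21.86 points for exon 3 of March5 and 6.86 points for exon 3 of Myoz2-203 (Myoz2, a Z-disc protein that binds calcineurin, was named after its values were seen). Tested directly by limma, the adjusted p-values were 0.663, 0.34 and 0.448. Without the third quadriceps ground sample the differences were 49.3, 17.8 and 7.48 points, with adjusted p-values of 0.706, 0.448 and 0.239 by limma. Of all 1858 events kept in both muscles 0.7% were apart in opposite directions, against 0.877% of these exons. The Myoz2 exon was a poison exon, at 5.3, 6.7 and 6.9 in gastrocnemius ground, 3.5, 3.8 and 3.6 in gastrocnemius flight, 1.7, 2.4 and 3.9 in quadriceps ground and 8.6, 7.1 and 4.9 in quadriceps flight. For Crebl2 the third quadriceps ground sample was at 3.7, against 55.6 and 30.8 in the others, and the row had a mean of 13.2 reads per sample.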

How the results depend on the processing

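Of 101 alternative counts of called exons or genes, 80 stayed within 1.5 times the reported count and 21 did not. For flight against ground, the gastrocnemius count was 0 and became 1 (Cacnb1, adjusted p 0.0469) when 1 row per exon was tested, which adjusts over fewer events, and the quadriceps count was 0 and became 1 by the quasi-binomial model (a 223-base row of Mbnl1), an alternative chosen after seeing the data; leaving out each sample gave 0 throughout in both. On the ground, the count between muscles was 1 and became 2 with 1 read added, 0 without the trend, 2 with weights by reads and 4 by the quasi-binomial model, and 0 to 5 when each sample was left out; it was 0 without the third quadriceps ground sample 3 without the second and 5 without the first. In flight it was 1 and became 0 with 1 read added, 0 without the trend, 0 for skipped exons alone and 2 with weights, stayed at 1 by the quasi-binomial model but with Necap2 in place of Ank2, and was 0 to 2 when each sample was left out. The difference between the flight effects stayed at 0 under all 21 alternatives. No direction changed in 484 alternative values of the exons ranked for flight or between muscles, but none could have. These exons were chosen for groups without overlap, so leaving out 1 sample cannot reverse the difference of mean PSI. The other alternatives leave that difference as it is. Exons named only from the lists or for their depth, and Myoz2, were not included. The cause of the changes in the counts was not tested.

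For host genes, leaving out each library gave 0 to 4 called in the gastrocnemius (4 without flight replicate 1 of the labels) and 0 in the quadriceps. With a replicate block, 0 host genes were called in the gastrocnemius and 0 in the quadriceps. No paired analysis was possible for splicing because the read lists carry no replicate numbers. Tests of the junction reads with edgeR and DESeq2 were not run. With a median of 20 to 31.0 reads per sample, small shifts in PSI were not detectable for the median exon.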
